A study of Drosophila melanogaster with 2 samples.

Results

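The genes of the insect cuticle proteins were examined in a map of chromatin bound by the proneural factor Atonal in fruit fly embryos. They were taken as the protein-coding genes with a symbol that starts with Cpr, Ccp84, Lcp or Twdl, which gave 118 genes among 13945 protein-coding genes on 2L, 2R, 3L, 3R, X and the small chromosome 4. A single match, the gene with the bare symbol Cpr, encodes the NADPH-cytochrome P450 reductase and no cuticle protein, so it was kept apart and the other 117 genes were described. They comprise 70 Cpr, 15 Lcp, 7 Ccp84 and 25 Twdl genes. The chromatin came from whole Drosophila melanogaster embryos of the ato-GFP strain, collected 0 to 18 h after laying, which express Atonal joined to eGFP from an insertion targeting ato. Fragments of 200 to 800 bp from sonication were immunoprecipitated. The labels' description names an antibody against GFP for this step, while their antibody field reads ato, so which antibody was used rests on the description alone. There were 2 biological replicates of this 1 group and no second genotype, stage or treatment, so every comparison below is between genes and not between conditions. Per the labels nothing says that the replicates came from separate matings, and all cell types of the embryo contribute to each.

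The cuticle is the apical extracellular matrix of the epidermis, trachea, foregut and hindgut, built from chitin fibres and the proteins that bind them. Most Cpr, Lcp and Ccp84 genes encode proteins with the Rebers-Riddiford consensus, a chitin-binding domain, while the Twdl genes encode the separate Tweedle family, in which dominant mutations alter body shape. Epidermal cells transcribe these genes in bursts late in embryogenesis and around each moult, under timing set by ecdysone and its nuclear receptors. Many of them lie in tandem clusters of short genes. Atonal is a basic helix-loop-helix (bHLH) factor that founds chordotonal organs and photoreceptors, and bHLH dimers recognise E-boxes.

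No cuticle protein gene had a reproducible Atonal peak at its start. In the conservative list, which holds the 3009 peaks that the authors kept when they compared the replicates, 0 of 117 cuticle genes had a peak summit within 500 bp of any annotated start. Over all protein-coding genes the share with such a peak was 21.8% (3034 of 13945). The count was also 0 in the thresholded list of replicate 1 alone, where 18.5% of all genes had a peak, and in that of replicate 2 alone, where 14.1% did. Among 179 chemosensory receptor genes (Or, Gr and Ir symbols), another set of short genes in families, 1 gene (0.559%) had a conservative peak. In whole embryos, binding in few cells and weak binding in many cannot be told apart.

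Weaker signal was listed at nearly all cuticle genes, a share close to that of all protein-coding genes. The ranked list, which pairs the replicates and also keeps 161563 peaks down to the weakest, put a summit within 500 bp of 109 of 117 cuticle genes (93.2%), against 89.8% of all protein-coding genes. The highest ranked signal at a start, on the authors' own scale, had a median of 23.6 over the 117 cuticle genes, with quartiles of 16.0 and 29.0 and a maximum of 48.2. Genes without a listed summit entered as 0. The median was 32.1 over all genes, 26.3 over the 10911 genes without a conservative peak, 100.6 over the 3034 genes with one and 17.4 over the chemosensory receptor genes. Only 22 cuticle genes (18.8%) lay above the median of all genes, and 41 (35.0%) lay above the median of the genes without a conservative peak. The highest cuticle signal was exceeded by 4290 genes (30.8%), of which 1276 had no conservative peak themselves.

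**Figure D1:**
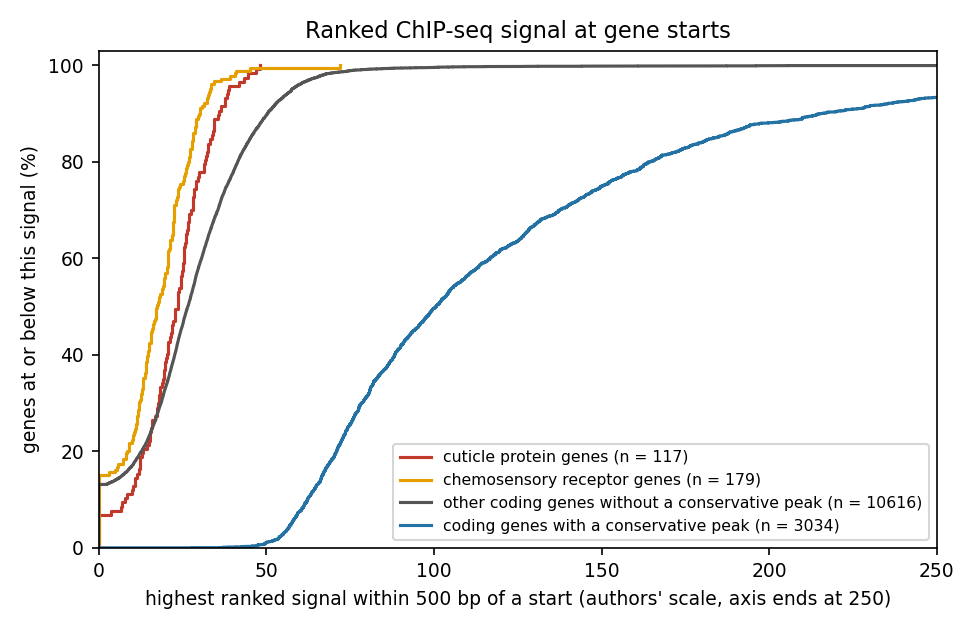
Share of genes (%, y axis) at or below each value of the highest ranked signal within 500 bp of a start (x axis, authors' scale, ending at 250), for cuticle protein genes (n = 117), chemosensory receptor genes (n = 179), the other coding genes without a conservative peak and coding genes with one (n = 3034). The cuticle curve is complete at 48.2. The curve of the genes with a conservative peak starts at 28.1 and has its lower quartile at 74.4.

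The 4 families covered overlapping ranges. The Ccp84 genes, a cluster of cuticle genes in the Antennapedia complex, had the highest median, 32.5 over 7 genes with a range of 12.5 to 34.5. The Lcp genes, named for larval cuticle proteins, had a median of 25.4 over 15 genes and the highest single value, 48.2. The Cpr genes had a median of 22.8 over 70 genes and a maximum of 46.8. The Twdl genes were lowest, with a median of 20.6 over 25 genes, a maximum of 31.3 and 0 genes above the median of all genes. Between the families the ranges overlapped at every pair. By chromosome arm the medians ran from 19.6 on X (8 genes) to 26.5 on 2L (6 genes), against 30.6 over all genes of X and 30.6 over all genes of 2L.

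**Figure D2:**
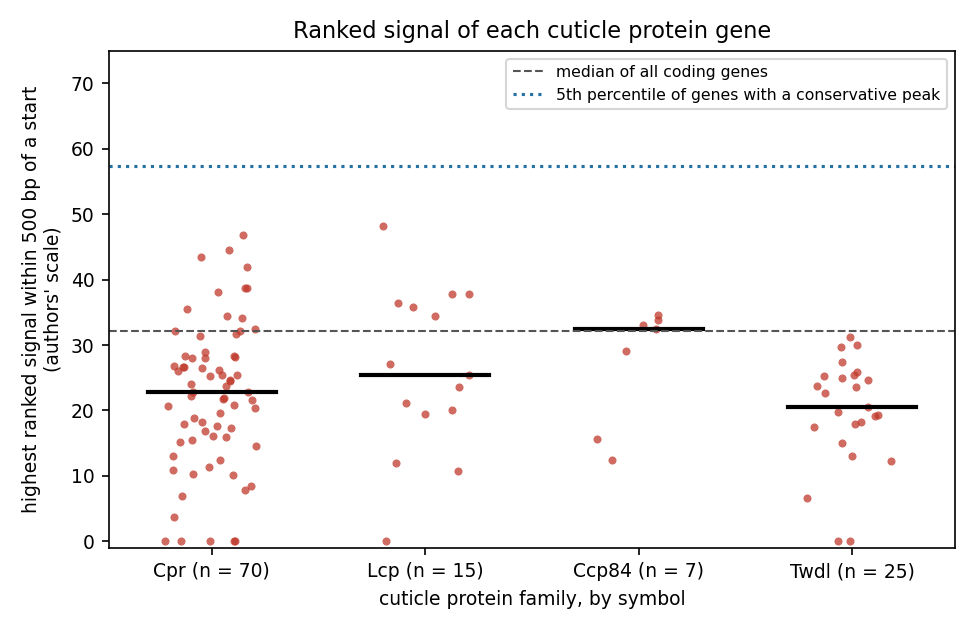
Highest ranked signal within 500 bp of a start (y axis, authors' scale) of each cuticle protein gene by family (x axis), each point a gene and each bar the family median. All 117 points lie below the dotted line at 57.4. That line is the 5th percentile of the conservative-list signals at starts of genes with a conservative peak, the lowest of which is 2.08. Every Twdl gene lies below the dashed line at 32.1, the median of all coding genes.

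The strongest cuticle genes had values close to each other, and their replicates did not rank them alike. Lcp9 (FBgn0025578, 2R 24779979 to 24780428, minus strand), which encodes a larval cuticle protein, was highest at 48.2, with 15.3 in the list of replicate 1 and 35.2 in that of replicate 2. Its summit, at +467 bp, lay past the far end of this short gene and 60 bp from the start of egg, which encodes a histone H3K9 methyltransferase. Cpr65Ea (FBgn0035735, 3L 7086003 to 7086608, minus strand) followed at 46.8, with 24.7 in replicate 1 and 25.5 in replicate 2 and a summit in its coding exon at +135 bp. Of the 10 highest cuticle genes in each replicate, only Cpr65Ea was in both sets. This overlap was not counted for other sets of genes.

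Further genes with the Rebers-Riddiford domain made up most of the next places. Cpr65Ec (FBgn0035737, 3L 7093204 to 7093841, plus strand) had 44.5, with 16.4 and 22.9 in replicates 1 and 2 and a summit at -89 bp, and Cpr47Ef had 43.4, with 16.9 and 23.3 and a summit at -52 bp. These were the 2 summits among the 10 highest genes that lay within 100 bp of a start. Cpr67Fa1 had 42.0 with its summit at +484 bp, and replicate 1 listed no peak there while replicate 2 gave 21.7. Its irreproducible discovery rate (IDR) was 0.0765. The authors' IDR is lower for peaks that the 2 replicates rank more reproducibly. No other cuticle gene reached an IDR of 0.1 or less at a start, whereas the conservative list begins at 0.01. Below it, Cpr76Bb had 38.8, Cpr67Fb 38.7 and Cpr97Ea 38.2. Lcp2 and Lcp3 shared a peak of 37.8 between their starts.

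At the other end, the lowest listed signals were those of Cpr67Fa2 (3.72), TwdlJ (6.63), Cpr78E (6.99), Cpr5C (7.89) and Cpr97Eb (8.43). In the 8 remaining genes, TwdlB, TwdlX, Cpr11A, Cpr47Eb, Cpr50Ca, Cpr65Ax2, Cpr92A and Lcp65Ag2, no ranked summit was listed within 500 bp. Of these, 6 were listed in at least 1 of the replicates' own ranked lists, and Cpr65Ax2 and Cpr92A in neither.

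Each replicate on its own gave the cuticle genes a lower median than all genes and than the genes without a conservative peak. In its own ranked list, replicate 1 put a summit at 95 of 117 cuticle genes (83.5% of all genes had one), with a median of 10.6 against 17.5 over all genes, 13.8 over genes without a conservative peak and 54.6 over genes with one. Replicate 2 put a summit at 101 (86.7% of all genes), with a median of 13.1 against 18.0, 14.9 and 48.6. In total 85 cuticle genes were listed in both replicates and 6 in neither. These counts were not set beside those of all genes, so they show nothing particular to cuticle genes. Across the 117 cuticle genes the replicates' values had a Spearman rho of 0.154, against 0.500 across the genes without a conservative peak and 0.737 across all genes. These correlations describe genes of the same 2 libraries and carry no p-value. The cuticle values reach only 24.7 and 35.2 in replicates 1 and 2, a narrower range than that of all genes. A gene's values in the 2 lists can also come from different summits. The part of either in the lower rho was not tested.

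**Figure D3:**
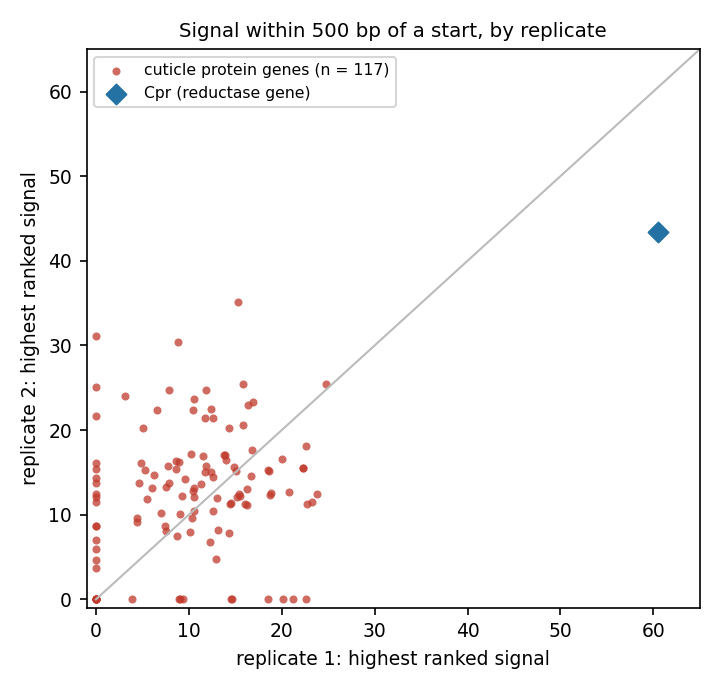
Highest ranked signal within 500 bp of a start in the list of replicate 1 (x axis) and of replicate 2 (y axis), both on the authors' scale, for each of the 117 cuticle protein genes (points) and for Cpr, the reductase gene (diamond). The line marks equal values. The cuticle genes stay below 24.8 in replicate 1 and 35.2 in replicate 2, and Cpr stands apart at 60.5 and 43.5.

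The weak summits at cuticle genes did not gather at the starts the way reproducible peaks did. Of the 109 best summits, 28 (25.7%) lay within 100 bp of a start, compared with 32.1% at other genes without a conservative peak and 70.5% at genes with one. The median distance was 199 bp at cuticle genes, 183 bp at the other genes without a conservative peak (n = 9374) and 51 bp at genes with one. By annotation, 41 summits (37.6%) were upstream of the gene, 41 (37.6%) in a coding exon, 16 (14.7%) in a 5′ UTR, 10 (9.17%) in an intron and 1 downstream. The median cuticle gene had 1 ranked summit within 500 bp, and the median of all genes was 2. At the limit of 500 bp, the best summit of TwdlO lay at +500 bp, and a stronger ranked summit of 58.9 lay 0.525 kb past the start of Ccp84Ag and was not counted, so that Ccp84Ag has 33.9.

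Reproducible peaks were also scarce in the wider surroundings of these genes. The nearest conservative summit was 22624 bp away at the median cuticle gene, against 8101 bp for all genes and 13667 bp for genes without a conservative peak. Within 5000 bp of a start there was a conservative summit for 13 cuticle genes (11.1%), from 9 distinct peaks, compared with 41.1% of all genes and 24.7% of those without a conservative peak.

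Conservative summits between 500 and 1000 bp from a start were found at 3 cuticle genes (2.56%), a share close to that of all genes with a summit in this band and none nearer (2.51%, 350 of 13945). For Cpr49Ad the summit lay at +938 bp, past the 3′ end of the gene, in a peak at 2R 12390593 to 12390928 with a signal of 63.1 and rank 2465 of 3009. No coding gene has a start nearer to it. For Cpr65Ec the summit lay at +943 bp, in a peak at 3L 7093979 to 7094314 with a signal of 91.8, and the nearest coding start was that of form3, which encodes a formin, at 671 bp. For Cpr60D the summit at -996 bp lay 4 bp from the start of ND-19, a subunit of mitochondrial complex I, with a signal of 125.2. Apart from Cpr49Ad, only Cpr76Ba (summit at 1604 bp, signal 81.7) and Cpr67Fb (2063 bp, signal 59.3) were the nearest coding gene of any conservative peak.

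Most cuticle genes lie in runs, and these runs held fewer conservative summits per Mb than the genome. Joining cuticle genes less than 20 kb apart gave 9 clusters of at least 4 genes with 67 members, and 1 conservative summit, the one near Cpr49Ad, lay inside them. With a margin of 500 bp at each end the clusters span 196.5 kb, which gives 5.09 conservative summits per Mb against 22.4 over the chromosomes, from this single summit. Ranked summits stood at 1404 per Mb in the clusters and 1191 over the chromosomes. The run Cpr76Ba to Cpr76Bd had a conservative summit 824 bp beyond its end. The longest run by genes, Lcp65Ag3 to Cpr65Az at 3L 6130386 to 6161589, holds 17 cuticle genes in 31.2 kb. Its nearest conservative summits were 58211 bp and 12339 bp beyond its ends. Ranked summits were not sparse in it, at 1.30 per kb against 1.13 per kb over 3L, and their median signal was 17.5 against 18.5 over the arm. Lcp65Af was its highest gene, at 36.5.

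The Tweedle run on 3R, TwdlM to TwdlD at 26619118 to 26641054, holds 12 genes in 21.9 kb. It had 1.70 ranked summits per kb against 1.26 over the arm, with a median signal of 16.4 against 18.1, and its highest gene was TwdlD at 29.7. Conservative summits came no nearer than 52018 bp on one side and 84165 bp on the other. The Ccp84 run on 3R, at 6686728 to 6704903, holds 7 genes in 18.2 kb, had 1.30 ranked summits per kb and was led by Ccp84Ad at 34.5, with a conservative summit 8008 bp away near the start of lab, a Hox gene. In the other clusters the highest genes were Lcp2 (37.8, tied with Lcp3), Cpr47Ef (43.4), Cpr49Aa (29.0), Cpr64Ad (34.4), Cpr76Bb (38.8) and TwdlY (31.3). Within the 9 clusters, 0 of the 12 other coding genes had a conservative peak, beside 21.8% of all genes. A count from 12 genes, 7 of them in the Cpr49Aa to Cpr49Ah run, says little.

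**Figure D4:**
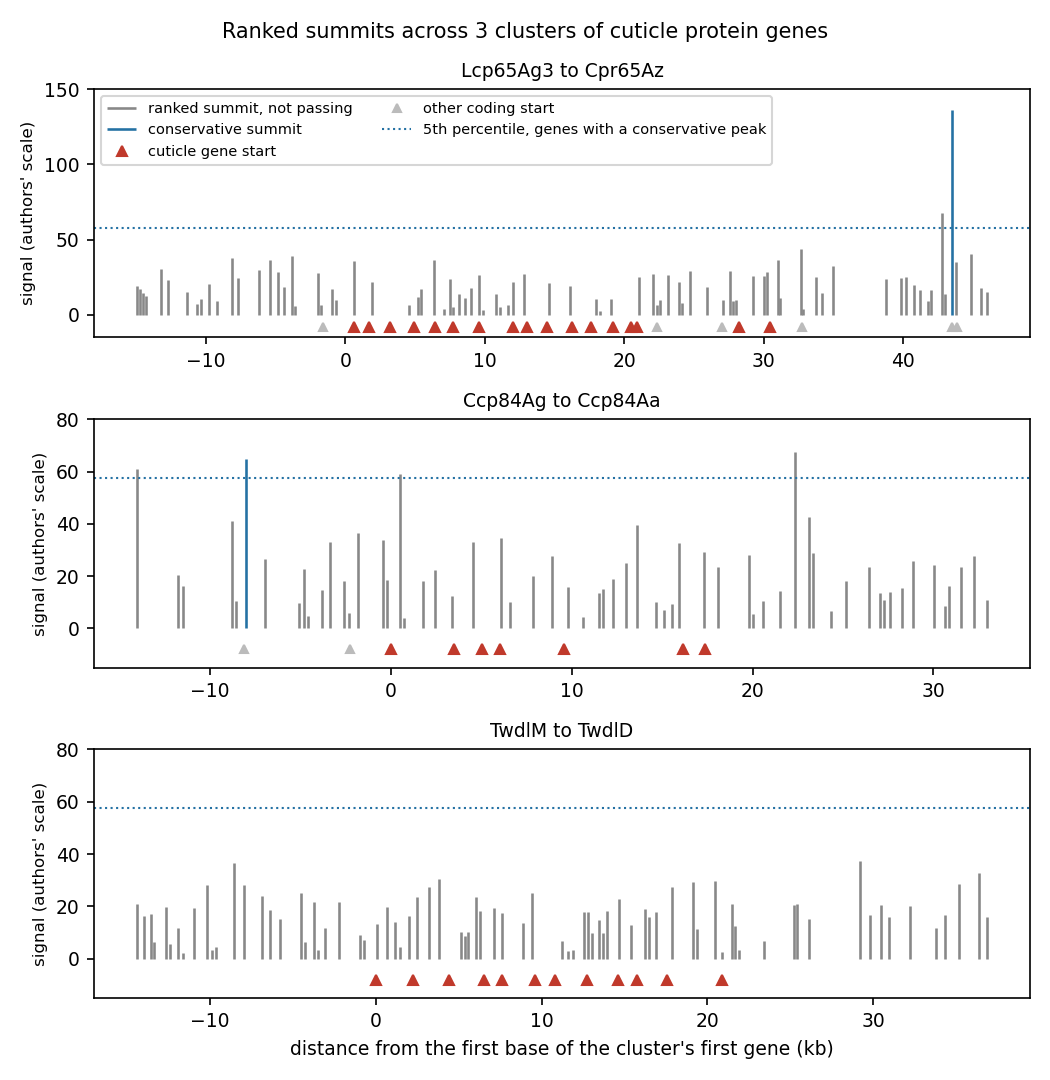
Signal of ranked summits (vertical lines, y axis, authors' scale) along 3 clusters by distance from the first base of the first gene (x axis, kb), with starts of cuticle genes and of other coding genes as triangles. No conservative summit (blue line) lies at a cuticle gene start, and the nearest are at 43.5 kb in the upper panel (136.5) and at -8.01 kb in the middle panel (64.8). The dotted line is at 57.4, the 5th percentile of the conservative-list signals at starts of genes with a conservative peak.

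Cuticle promoters differed from those of genes with a conservative peak in their core motifs. That peak could be at any start of the gene, while motifs were read at the outermost start only. Some promoters grouped as having a conservative peak thus lie away from it. In a window of 250 bases before to 50 after the outermost start, the TATA box (TATAAA, on the gene's strand, 20 to 45 bases before the start) was found in 64 of 117 cuticle promoters (54.7%). It was found in 8.08% of all promoters, in 1.81% of those with a conservative peak, in 9.82% of those without and in 8.38% of chemosensory receptor promoters. All families shared it, with 36 of 70 Cpr, 9 of 15 Lcp, 5 of 7 Ccp84 and 14 of 25 Twdl promoters. The DNA replication-related element (DRE, TATCGATA, on either strand), a motif of housekeeping promoters, showed the reverse. It was in 27.8% of promoters with a conservative peak, in 9.36% of all and in 4.23% of those without a conservative peak. It was in 1 cuticle promoter (0.855%), that of Cpr49Af, where the signal was 16.0, and was about as rare in chemosensory receptor promoters (0.559%).

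For the other motifs the shares in cuticle promoters were higher than those of all promoters by less than for the TATA box. The E-box (CANNTG, which reads the same on both strands) was in 82.1% of cuticle promoters, 77.2% of all promoters, 73.9% of those with a conservative peak and 83.2% of chemosensory receptor promoters. GAGAG, on either strand, was in 30.8% of cuticle promoters, 29.7% of all, 25.3% of those with a conservative peak and 20.1% of chemosensory receptor promoters. The initiator (TCAGT, on the gene's strand within 10 bases of the start) was in 13.7%, 12.2%, 7.61% and 2.79% of the same groups. In promoters without a conservative peak the E-box stood at 78.2%, GAGAG at 30.9% and the initiator at 13.4%. Neighbouring matches can share letters, as TCAGT can with an E-box, but no motif contains another. A match describes the letters only, and these shares were not tested.

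**Figure D5:**
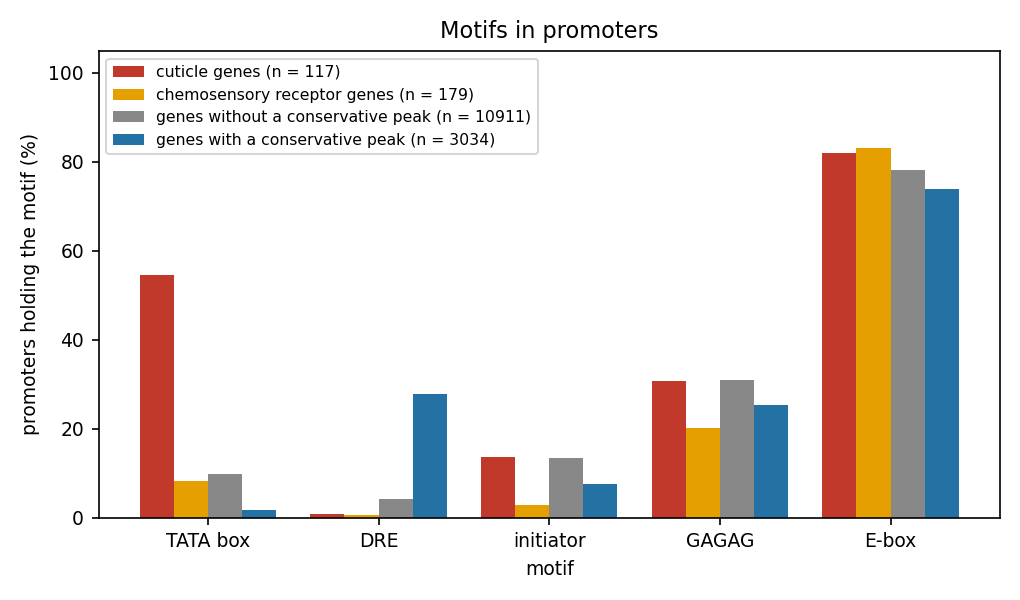
Share of promoters (%, y axis) that hold each of 5 motifs (x axis), for cuticle genes (n = 117), chemosensory receptor genes (n = 179), genes without a conservative peak (n = 10911) and genes with one (n = 3034). The TATA box bars stand at 54.7% for cuticle genes and 1.81% for genes with a conservative peak, and the DRE bars at 0.855% and 27.8%.

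The core promoters below show the TATA box in each family, at the gene with the highest ranked signal among the family's TATA genes on 2L, 3L, 3R and X. Each runs from 45 bases before to 20 after the start, 5′ to 3′ on the gene's strand, with the TATA box in capitals, from the RefSeq dm6 assembly. They lie at chr3L:7086589-7086653 (minus strand, Cpr65Ea), chr3L:6136772-6136836 (minus, Lcp65Af), chr3R:6686683-6686747 (plus, Ccp84Ag) and chr3R:4254663-4254727 (plus, TwdlV). The ranked signals at these genes were 46.8, 36.5, 33.9 and 30.02.
Cpr65Ea: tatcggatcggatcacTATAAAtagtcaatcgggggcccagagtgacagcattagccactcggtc
Lcp65Af: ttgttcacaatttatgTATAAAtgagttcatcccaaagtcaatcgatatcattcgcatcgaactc
Ccp84Ag: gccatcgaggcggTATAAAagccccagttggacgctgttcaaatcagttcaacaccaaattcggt
TwdlV: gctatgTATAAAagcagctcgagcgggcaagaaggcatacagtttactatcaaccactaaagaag

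A longer stretch shows the promoter of Cpr65Ec, the third highest cuticle gene, whose ranked summit at -89 bp falls inside it (chr3L:7093024-7093223, plus strand, from -180 to 20 bases after the start, TATA box in capitals).
Cpr65Ec: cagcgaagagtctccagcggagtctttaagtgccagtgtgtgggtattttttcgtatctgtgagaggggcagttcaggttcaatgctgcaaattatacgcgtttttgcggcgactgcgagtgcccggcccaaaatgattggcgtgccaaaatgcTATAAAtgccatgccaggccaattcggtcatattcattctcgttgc

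The only gene matched by the symbol rule that had a conservative peak was Cpr, the reductase gene (FBgn0015623, 2L 6338836 to 6346280, plus strand), which passes electrons to cytochrome P450 enzymes. Its peak at 2L 6338256 to 6338591 had a signal of 94.1, rank 1375 of 3009, which is 1.95 times the highest cuticle signal. Replicate 1 gave 60.5 and replicate 2 gave 43.5, and the peak was in the thresholded list of each. The summit lay at -412 bp from the start of Cpr and 2 bp from that of Pez, a tyrosine phosphatase gene on the other strand. The 30 bases that end at the summit hold a DRE and an E-box, shown in capitals, at chr2L:6338395-6338424 on the plus strand.
Cpr and Pez: gctgaTATCGATAcgCAGGTGctgactgag

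The absence of conservative peaks was set beside genes of like architecture. Cuticle genes are short, with a median length of 983 bp against 2166 bp for all genes, 107 of them (91.5%) have 1 annotated start against 73.5% of all genes, and 5 (4.27%) have another coding start within 500 bp against 30.9%. Among all genes of at most 2000 bp with 1 start and no other coding start within 500 bp, 6.75% had a conservative peak (286 of 4237, of which 91 were cuticle genes). Among those that also had a TATA box, 1.41% did (9 of 638, of which 55 were cuticle genes). In these 2 sets the median ranked signal was 22.1 and 21.0 over all genes, and 23.6 and 23.7 over the cuticle genes in them. The cuticle median was thus not lower in these 2 sets. It was lower among all genes of at most 2000 bp, at 23.7 against 25.9. It was also lower among genes with no other coding start within 500 bp, at 23.2 against 27.5. Among those that also had 1 start it was 22.8 against 24.8. The part of gene architecture in the count of 0 was not tested.

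Repeated sequence touched a minority of the genes. Reads from near-identical copies cannot be placed on a single copy, and the sources used here do not say how the authors handled them. Of the 117 cuticle genes, 15 (12.8%) had less than 90% of the 31-base words around their starts unique in the genome, against 4.26% of all genes. Their median ranked signal was 19.4, and that of the 102 other cuticle genes was 23.7. Lcp65Ab1 and Lcp65Ab2, whose promoters are 97.0% identical, had 10.7 and 19.4 with 9.58% of the words unique at each.

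Cpr65Ax1 and Cpr65Ax2 are also 97.0% identical over their promoters, and they had 10.2 and no listed summit. Their core promoters, at chr3L:6147968-6148032 and chr3L:6150838-6150902 on the minus strand, show how far the copies match, since the second reads as the first shifted by 1 base. The values of such pairs cannot be assigned to either gene.
Cpr65Ax1: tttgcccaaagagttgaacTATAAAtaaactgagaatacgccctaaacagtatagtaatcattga
Cpr65Ax2: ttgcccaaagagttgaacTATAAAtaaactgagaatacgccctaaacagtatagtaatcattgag

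Other genes of cuticle building were read from a list by role. With a share of 21.8% over all genes, counts of 0 or 1 in groups of 4 to 10 genes say little about a group. None of 10 cuticle protein genes with other symbols had a conservative peak, and their median ranked signal was 26.9. Among them Edg84A, an ecdysone-dependent cuticle gene beside the Ccp84 run, had 36.6 and resilin, the elastic cuticle protein, had 26.9. The same count was 0 of 7 for chitin organisation, 0 of 4 for chitinases, 0 of 8 for tanning and pigment (median 34.7) and 0 of 4 for the apical matrix. In chitin synthesis 1 of 4 passed. This was kkv, the chitin synthase of the epidermis, with a conservative peak of 55.9 at +63 bp, rank 2750, and 28.7 and 30.1 in replicates 1 and 2.

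Regulators of cuticle genes and moulting had conservative peaks at 4 of 12, beside the 21.8% of all genes. These were ftz-f1, a nuclear receptor of the moulting cascade, at 141.8 (summit at -222 bp), usp, the partner of the ecdysone receptor, at 109.3 (-115 bp, also at the start of CG4313), Hr4 at 71.7 (-100 bp) and Eip75B at 70.7 (+145 bp). For ftz-f1 the replicates gave 88.4 and 54.2, for usp 62.0 and 49.8, for Hr4 43.4 and 27.5, and for Eip75B 34.9 and 36.9. Among the regulators without a conservative peak, ranked signals ran from 17.7 at br to 66.5 at Hr39. A count of 4 in 12 genes says little about the regulators as a group. Over the whole list 5 of 49 genes (10.2%) had a conservative peak, and without the regulators 1 of 37 (2.70%) did. A high signal did not suffice, since grh, which encodes the epidermal factor Grainy head, had a ranked signal of 66.5, and mmy, an enzyme of the chitin precursor, had 69.7, both without a conservative peak.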

How the data were processed

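The authors deposited peak lists on dm6 per replicate and for both combined, each as a list ranked by IDR and a thresholded list. A peak's signal is a value the authors deposited, on a scale the sources used here do not give, so it was used only to describe or rank peaks. All 3009 conservative peaks are in the ranked list that pairs the replicates with the same position and signal, so these lists share a scale. The lists of single replicates were not set against them. The ranked lists also hold a −log10 global IDR, deposited by the authors. The sources used here name no aligner and no peak caller, a control was not analysed here, and the files hold no read counts, so depth is unknown and no counting interval is given. In the ranked lists that combine the replicates, 4 columns of values for single replicates name no replicate and were not used. Replicate values came from each replicate's own ranked list.

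Annotated starts were those of Ensembl release 115, and sequence was read from RefSeq's dm6 assembly. A gene had a peak when a summit lay within 500 bp of any of its starts. Its signal was the highest ranked value there, or 0. Assignment was tested on simulated data, where 200 summits planted near real starts gave 171 pairs of gene and summit, with 0 differing from a direct search. Promoters of copies were aligned with match 1, mismatch -1, gap opening -2 and gap extension -0.5. Tools were Python 3.11.15, numpy 2.4.6, scipy 1.17.1, pandas 2.3.3 and Biopython 1.88.

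The members and the list by role were chosen with earlier results of these data known, so counts and medians are set beside all genes and no test or p-value is given. For 1 gene of the list the symbol was updated. Genes named by rule are the 10 highest and 5 lowest cuticle genes, those with a conservative summit between 500 and 1000 bp away, Cpr, the highest gene of each cluster and the list genes with conservative peaks. The others were named after their values were seen.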

Additional observations from a re-analysis of the deposited data

How the results depend on the processing

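The count of 0 cuticle genes with a conservative peak stayed at 0 in the pooled list, in either replicate alone, at 250 bp, with the outermost start, with nearest starts only, by peak interval and with the strongest 50% of peaks. In these settings the share of all genes ran from 12.9% (strongest 50% of peaks) to 23% (pooled list). At 1000 bp the cuticle count was 3 (24.3% of all genes), and with Cpr included it was 1 (21.8%). The count of 109 with a ranked peak ranged elsewhere from 86 at 250 bp (74.7% of all genes) to 115 at 1000 bp (95.6%). It was 1 at an IDR of at most 0.1 (32.8% of all genes). The median of 23.6 was 17.3 at 250 bp (25.2 over all genes) and 28.0 at 1000 bp (37.3). In the lists of single replicates, which have their own signals, it was 10.6 and 13.1. The cuticle median was below that of all genes in each of these settings. The cause of these shifts was not tested. No paired analysis was possible because there is 1 group. With 2 replicates and no depth, the files cannot show whether weaker binding at these starts was missed.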

Other observations

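Cpr67Fa1 and Cpr67Fa2, neighbouring genes 1724 bp apart on 3L with promoters 65.5% identical, were at opposite ends of the cuticle genes, at 42.0 and 3.72 in the ranked list. In the replicates' own lists the order did not hold throughout, since replicate 1 gave no summit at Cpr67Fa1 and 5.51 at Cpr67Fa2, and replicate 2 gave 21.7 and 11.8. More than 90% of the words around both starts were unique. Of the 3 Lcp65Ag genes, whose promoters are 59.1 to 61.1% identical, Lcp65Ag3 had 35.8, Lcp65Ag1 11.99 and Lcp65Ag2 no listed summit, with about the same share of unique words at each (59.2 to 62.4%).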
